A study of Mus musculus with 2 samples.

Results

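Deep intronic sequence is taken here as the intron bases of protein-coding genes that lie more than 250 nt from every exon on that strand, in the mm9 GENCODE vM1 annotation. It covers 843 Mb, which is 83.8% of the stranded bodies of protein-coding genes, and it is found in 18545 of 22380 such genes. Of 581447 Mbnl2 HITS-CLIP tags kept, 124449 had their midpoint in these bases on the strand of the gene, 38339 in WT and 86110 in Mbnl1 KO muscle. The tags came from quadriceps of WT and Mbnl1-/- mice, 15 to 16 weeks old. In the labels these mice are C57BL/6, and the methods of the study place its Mbnl knockout crosses on a C57BL/129 background. In HITS-CLIP, UV light ties a protein covalently to RNA in contact with it, RNase A trims the RNA (here at 38.6 and 0.0386 U/ml), an antibody (mAb 3B4 against Mbnl2) pulls the complexes down, and the short RNA tags are sequenced. The Mbnl1 KO mice carry the knockout in all cells and the study names the deleted part of Mbnl1 as exon 3. The tags of 3 mice per genotype were merged into 1 table, so no spread between mice and no test between genotypes could be had. All intervals are 95% Clopper-Pearson (exact) intervals. They speak for the counting of tags in these libraries and for nothing else.

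Mbnl2 belongs to the muscleblind-like family of zinc finger proteins, which steer alternative splicing in muscle, heart and brain and are held away from their targets by CUG and CCUG repeat RNA in myotonic dystrophy. They prefer YGCY, a GC step between 2 pyrimidines (Y stands for C or U, written T here as in the genome). Sites that act on an exon usually lie in it or close to it. Deep introns hold most of the sequence of a pre-mRNA, are present only until splicing removes them, and carry many repeats.

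The bound sequences are shown first, in lower case with every YGCY in capitals, on mm9 and on the strand of the gene. A cluster is a run of overlapping tags pooled over both genotypes. The first 4 lie in introns of muscle genes. They are 4 of the 9 clusters with at least 10 tags and at least 3 YGCY in which at least 90% of the tags had central 19 bases found once in the genome, a choice made after their values were seen. The KO/WT ratios of these 4 ran from 1.55 to 6.73, and those of the other 5, which are not shown, from 0.320 to 1.08. Ttn encodes titin, the spring of the sarcomere, and Ampd1 the AMP deaminase of muscle.
Ttn, chr2:76763551-76763642, minus strand: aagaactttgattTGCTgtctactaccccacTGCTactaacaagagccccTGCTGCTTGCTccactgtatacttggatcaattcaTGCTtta
Ttn, chr2:76763730-76763779, minus strand: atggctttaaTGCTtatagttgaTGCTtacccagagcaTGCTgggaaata
Ttn, chr2:76682654-76682711, minus strand: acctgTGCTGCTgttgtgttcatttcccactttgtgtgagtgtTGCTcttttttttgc
Ampd1, chr3:102881088-102881123, plus strand: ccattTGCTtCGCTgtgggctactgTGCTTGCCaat

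Other clusters sat in tandem repeats, in which a unit recurs head to tail. The unit is shown for Arid1b, Unc45b and Dcakd, which are among those with the most tags. It is also shown for Ypel2 and Orc5, which had the highest KO/WT ratios among clusters with at least 20 tags.
Arid1b, 29 nt: acactccccTGCTccttccttagaattgc
Unc45b, 17 nt: ccggaccccCGCTCGCT
Dcakd, 28 nt: acctTGCTGCTgttgcagactgactgtt
Ypel2, 39 nt: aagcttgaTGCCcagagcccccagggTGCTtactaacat
Orc5, 19 nt: aagaagctgcatatagact

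The repeat units thus differ in YGCY. The units of Unc45b, Dcakd and Ypel2 held 2 YGCY each, that of Arid1b 1 and that of Orc5 0 when read around its join.

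Deep introns held 20.3% (20.1 to 20.5) of the WT tags and 21.9% (21.8 to 22.1) of the Mbnl1 KO tags. Per tag kept, the KO/WT ratio was 1.08 (1.07 to 1.09). The ratio was 1.13 (1.09 to 1.17) in intron bases within 250 nt of an exon and 1.92 (1.89 to 1.95) in exons of protein-coding genes. The exon interval lay well apart, while those of deep introns and of intron bases near exons nearly met at 1.09. The difference between exons and deep introns was seen in coding exons, at 1.81 (1.76 to 1.87), and in untranslated exons, at 1.97 (1.93 to 2.001). Deep intronic tags were thus about as frequent in both tables, while exonic tags took a larger share of the Mbnl1 KO table. Scaled to exonic tags in place of all tags, the deep intronic ratio was 0.561, on the other side of 1. It was 1.01 among tags of at least 2 reads, 1.02 among tags of at least 24 nt and 1.00 among tags whose central 19 bases occur once in the genome, so the excess of 1.08 over 1 depended on which tags were counted.

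The density of tags was low. Deep introns held 241 tags per Mb in every 1000000 kept tags in WT and 260.0 in Mbnl1 KO, against 1382 and 2660 in exons. The opposite strand of the same bases, which is not transcribed as part of the gene, serves as a background measured in the same way and held 172 and 140.2. The sense/antisense ratio was 1.40 (1.38 to 1.42) in WT and 1.85 (1.83 to 1.88) in Mbnl1 KO. Among tags of at least 2 reads the values were 2.12 and 2.57. Where bases with a gene on the opposite strand were left out, they were 1.48 and 2.195. With single-base tags kept (reference sequence at least 70% one base), WT stood at 1.01 and Mbnl1 KO at 1.61. Such tags made up 35.1% of the WT and 13.5% of the Mbnl1 KO tags at deep intronic bases before they were left out.

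**Figure D1:**
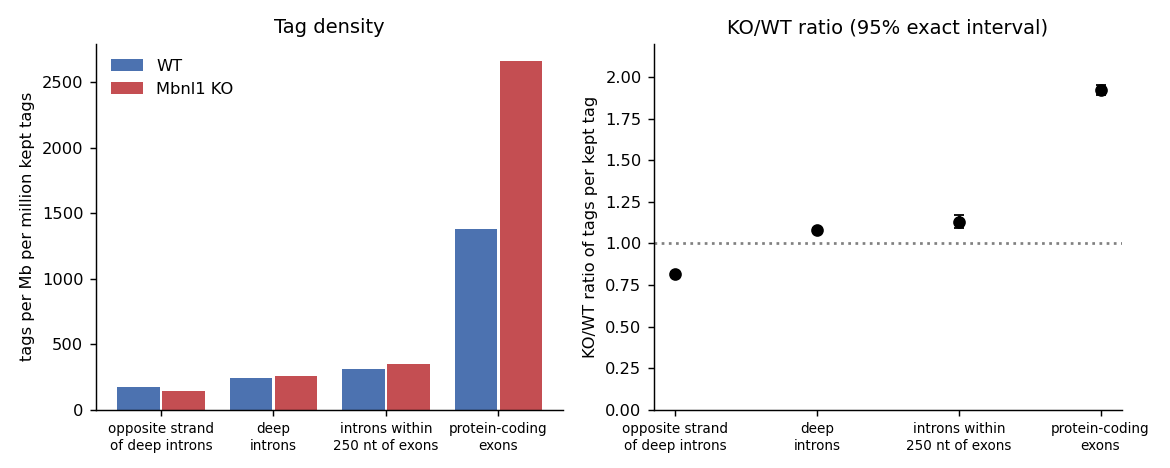
Left, tags per Mb per 1000000 kept tags in WT (blue) and Mbnl1 KO (red) for 4 kinds of sequence. Right, the KO/WT ratio with its 95% exact interval: deep introns sit at 1.08, their opposite strand at 0.814 and exons at 1.92.

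The tags themselves were short and mostly seen once. Deep intronic tags had a median length of 21 nt in WT and 23 nt in Mbnl1 KO, and 66.2% of the WT and 51.4% of the Mbnl1 KO tags rested on 1 read, against 42.9% and 33.6% in exons. RNase A cuts RNA after C and U. The base before the tag was a pyrimidine at 56.5% (56.0 to 57.0) of WT and 67.02% (66.7 to 67.3) of Mbnl1 KO deep intronic tags, where 51.04% of all deep intronic bases are pyrimidines. On the opposite strand it was 48.6% and 58.8%, and in exons 65.5% and 74.8%. Deep intronic tags thus lay between their antisense background and exons in both tables, and the Mbnl1 KO table was higher throughout.

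The 20 chromosomes that carry deep intronic tags in number gave a KO/WT ratio of 0.994 to 1.18, with a median of 1.09 and 18 of 20 above 1. The sense/antisense ratio ran from 1.00 to 1.63 over chromosomes in WT and from 0.766 to 2.30 in Mbnl1 KO. The lowest value in each table was that of chromosome 8, where the annotated read-through gene Gm20388 spans 4110 kb of deep intron and had 4962 tags on its opposite strand, against 115 WT and 226 Mbnl1 KO tags on its own.

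YGCY stood at the tags. A window of 31 nt around the midpoint held at least 1 YGCY at 45.7% (45.2 to 46.2) of WT and 53.4% (53.0 to 53.7) of Mbnl1 KO deep intronic tags. Windows 200 nt up- and downstream on the same strand held one at 28.4% and 30.1%, and windows at every 20000th deep intronic base at 25.7% (25.3 to 26.1). The share at tags over that at flanks was 1.61 in WT and 1.78 in Mbnl1 KO. The opposite strand also had more YGCY at tags than at flanks, 35.3% against 25.6% in WT and 48.6% against 29.7% in Mbnl1 KO, so part of the pattern was shared with tags off the gene's strand. Among tags whose central 19 bases occur once in the genome, the share was 45.2% in WT and 51.4% in Mbnl1 KO.

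**Figure D2:**
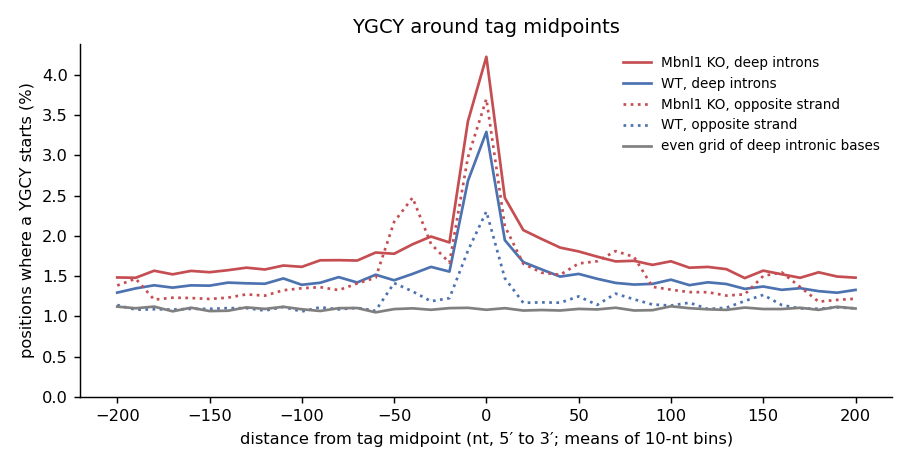
Share of positions at which a YGCY starts, by distance from the tag midpoint in nt (means of 10-nt bins), for deep intronic tags (solid), tags on the opposite strand (dotted) and an even grid of deep intronic bases (grey). At the midpoint bin the share is 4.22% in Mbnl1 KO and 3.29% in WT deep introns, and 1.08% on the grid.

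The motif share also moved with the support of a tag. In WT, 53.7% of deep intronic tags of at least 2 reads had YGCY, against 41.6% of tags of 1 read. In Mbnl1 KO the shares were 56.1% and 50.8%, so the tables differed less among tags of at least 2 reads than among tags of 1 read. Tags that overlapped a tag of the other table had YGCY at 59.3% in WT and 64.1% in Mbnl1 KO, while tags that overlapped no other tag had it at 40.5% and 48.8%.

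Of all tetramers, counted at tags over flanks, GCTT came first in Mbnl1 KO deep introns at a ratio of 2.91. It was followed there by TGCT at 2.80 and by TTGC at 2.62, and CTGC was the fourth at 2.39. In WT, TGCT was first at 2.49, then came TTGC at 2.45 and GCTT at 2.40. The YGCY tetramers were not alike. TGCC had a ratio of 1.87 in Mbnl1 KO and 1.55 in WT, CGCT of 1.66 and 1.55, and CGCC of 1.31 and 0.884, so the form with U on both sides led and that with C on both sides came last in both tables. GACG and CGAT ranked the fourth and the fifth in WT, at 2.24 and 2.22, against 1.23 and 1.28 in Mbnl1 KO.

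The KO/WT ratio was higher with each further YGCY in the window. Tags with 0 YGCY had a ratio of 0.927 (0.911 to 0.942), those with 1 of 1.17 (1.14 to 1.20), with 2 of 1.24 (1.20 to 1.28), with 3 of 1.49 (1.40 to 1.57), with 4 of 1.81 (1.66 to 1.98), and those with at least 5 of 2.10 (1.89 to 2.34). The intervals of 0 to 4 YGCY did not overlap each other, while those of 4 and of at least 5 did. Windows with at least 5 YGCY were rare, with 432 tags in WT and 1890 in Mbnl1 KO, or 1.13% and 2.19% of deep intronic tags and 0.0308% of the grid. Among tags whose central 19 bases occur once in the genome the range was smaller, from 0.889 (0.871 to 0.906) with 0 to 1.22 (1.13 to 1.32) with 3, 1.29 (1.09 to 1.52) with 4 and 1.27 (0.923 to 1.76) with at least 5. The opposite strand went from 0.647 with 0 to 2.19 with 4 and 2.15 with at least 5, so in both of these sets the last step was not upward. Among tags of at least 2 reads, scaled to all such tags, the ratio was 0.954 with 0 and 1.47 with at least 5.

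**Figure D3:**
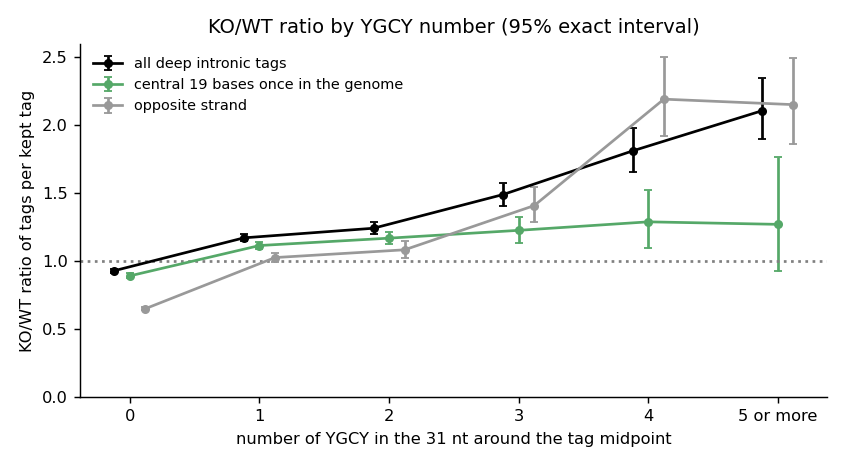
KO/WT ratio of tags per kept tag (points, with 95% exact intervals) by the number of YGCY in the 31 nt around the tag midpoint. All deep intronic tags (black) run from 0.927 to 2.10, tags with 1 genomic copy of their central 19 bases (green) from 0.889 with 0 to 1.29 with 4 YGCY, and the opposite strand is grey.

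Repeated sequence was measured directly. The central 19 bases occurred once in the genome for 72.5% of WT and 67.2% of Mbnl1 KO deep intronic tags, and for 73.4% of the grid. They occurred at least 20 times for 9.08%, 15.0% and 12.5%. Tandem repeats held 2.89% of WT and 5.35% of Mbnl1 KO tags and 1.07% of the grid. The share that matched an annotated small structured RNA was 0.550% in WT and 1.44% in Mbnl1 KO on the gene's strand, and 3.22% and 10.3% on the opposite strand. The Mbnl1 KO table thus held more tags in repeats, and the part of this in the ratios above was measured by leaving such tags out.

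Density was lower farther from exons. In Mbnl1 KO, 119 tags per Mb lay from 250 to 500 nt from the nearest exon and 70.9 beyond 50000 nt. WT had 51.5 and 34.4. The opposite strand had 50.7 and 53.2 in Mbnl1 KO and 32.6 and 31.1 in WT, and thus differed less between these distances. Between them it was uneven, with 67.2 in Mbnl1 KO and 35.1 in WT from 20000 to 50000 nt. The sense/antisense ratio went from 2.35 to 1.33 in Mbnl1 KO and from 1.58 to 1.11 in WT. In Mbnl1 KO it was lowest from 20000 to 50000 nt, at 1.28, where the opposite strand was densest. The KO/WT ratio was 1.11 (1.07 to 1.16) at the near end and 0.989 (0.939 to 1.04) at the far end.

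Within introns over 50000 nt, tags were denser toward the 5′ end. The first 10% of the intron held 102 tags per Mb in Mbnl1 KO and the last 10% held 61.2, and in WT 45.2 and 36.1. The opposite strand had 61.4 and 46.7 in Mbnl1 KO and 34.7 and 29.7 in WT, so it was also lower at the 3′ end. The KO/WT ratio was 1.09 (1.02 to 1.16) in the first 10% and 0.816 (0.754 to 0.883) in the last 10%, and these intervals did not overlap.

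**Figure D4:**
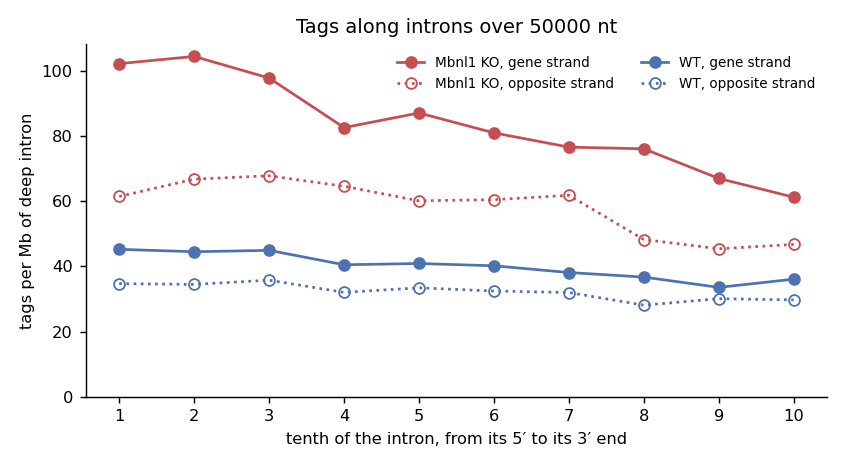
Tags per Mb of deep intron in each 10% step of introns over 50000 nt, from the 5′ to the 3′ end, on the gene's strand (filled) and on the opposite strand (open). Mbnl1 KO (red) goes from 102 to 61.2 and WT (blue) from 45.2 to 36.1 on the gene's strand.

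Most tags stood alone. Overlapping tags made 89101 clusters, of which 20092 had at least 2 tags, 209 at least 10 and 12 at least 50. Of the WT tags 63.0% and of the Mbnl1 KO tags 52.1% overlapped no other tag, against 22.6% and 16.7% in exons. A tag of the other table was overlapped by 26.2% of WT and 15.2% of Mbnl1 KO deep intronic tags, against 68.4% and 40.02% in exons. On the opposite strand the shares were 20.7% and 22.2%, so Mbnl1 KO deep intronic tags were below that background. The 209 clusters of at least 10 tags lay in 134 genes and held 3.38% of the deep intronic tags. Their median ratio was 1.60, with 41 intervals above 1 and 12 below. Of the 41, 23 had 0 WT tags and so reached the minimum through Mbnl1 KO alone, where 10 such tags already give an interval above 1. Over the whole genome, 21.6% of 2369 such clusters had an interval above 1 and 4.81% below, with a median of 1.92. The 41 and 12 of 209 were thus close to the shares in the whole genome.

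The 12 largest clusters were all in repeated sequence, since the share of their tags with 1 genomic copy was at most 19.3%. The largest, in Gphn, which encodes gephyrin (chr12:79451911-79452164), had 41 tags in WT, 155 in Mbnl1 KO and a ratio of 1.82 (1.28 to 2.63). It made up 76.3% of the gene's deep intronic tags. Its sequence resembles the large ribosomal RNA, which is said from background knowledge and was not matched to a ribosomal reference here. Of it 100 nt are shown, because tags of this kind are counted as intronic by position alone. In 2610528E23Rik, an unnamed gene, 2 clusters of 22 and 87 and of 14 and 40 tags read likewise, as did those of Zfp185 with 22 and 50 and Cd44, the hyaluronan receptor, with 20 and 40.
Gphn, chr12:79451929-79452028, plus strand: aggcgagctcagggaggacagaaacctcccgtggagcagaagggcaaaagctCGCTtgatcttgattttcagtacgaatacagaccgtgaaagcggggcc

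A further cluster of the 12 had 6 WT and 48 Mbnl1 KO tags at 3.85 (1.64 to 10.997), and was no tandem repeat. Of its tags 100% matched an annotated small structured RNA, so they too were intronic by position alone. The others were tandem repeats. Arid1b, a subunit of the BAF chromatin remodelling complex, had 3 of them, with 18 WT and 80 Mbnl1 KO tags at a ratio of 2.14 (1.27 to 3.79), 9 and 62 at 3.31 (1.64 to 7.58), and 13 and 42 at 1.55 (0.818 to 3.15). Dcakd had 21 and 49 tags at 1.12 (0.660 to 1.97), and Unc45b, the myosin chaperone of muscle, 13 and 41 at 1.52 (0.796 to 3.08). Zeb1, a zinc finger repressor, had 27 and 69 at 1.23 (0.777 to 1.99). Over all 209 clusters, 95 were tandem repeats, with a median ratio of 2.08 and 8.65 YGCY per 100 nt, against 1.20 and 1.21 in the other 114. Of the tandem clusters 27 had an interval above 1, of which 16 had 0 WT tags and were set by the minimum, and 2 below. Of the others 14 had one above, 7 of them with 0 WT tags, and 10 below.

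Among the 59 clusters with at least 20 tags, the highest ratios were those of Orc5, Ypel2, Ttn and Trdn. They were chosen for their ratios, which are given as a description. Orc5, a subunit of the origin recognition complex, had 0 WT and 20 Mbnl1 KO tags in its largest cluster, which is 3.20-fold a floor of 3 WT tags, and its exact interval starts at 2.37. Ypel2 had 1 and 31 tags at 14.9 (2.48 to 607). The Ttn cluster at chr2:76639557-76639631 had 1 and 21 at 10.1 (1.62 to 417) and lay 683 nt from the exon before it. Trdn, which encodes triadin of the calcium release complex, had 2 and 24 at 5.77 (1.43 to 50.4), 1233 nt into the intron. Each rested on at most 2 WT tags.
Ttn, chr2:76639557-76639631, minus strand: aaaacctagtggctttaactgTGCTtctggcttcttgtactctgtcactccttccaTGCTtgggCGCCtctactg
Trdn, chr10:33085034-33085114, plus strand: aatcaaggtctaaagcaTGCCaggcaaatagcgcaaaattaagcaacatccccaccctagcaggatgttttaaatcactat

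The lowest ratios were those of Usp3, with 14 WT and 11 Mbnl1 KO tags at 0.378 (0.155 to 0.896), A230083G16Rik with 19 and 16 at 0.405 (0.195 to 0.831), Fzd3 with 12 and 11 at 0.441 (0.176 to 1.09) and Slc25a21 with 9 and 12 at 0.641 (0.248 to 1.72). The first 3 share a run of 14 nt, set in capitals in the next sequences in place of YGCY.
Usp3, chr9:66417068-66417097, minus strand: tatatgaGGGAGGACGATGCGagtgctttc
A230083G16Rik, chr6:124867858-124867890, plus strand: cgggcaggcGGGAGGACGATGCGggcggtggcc
Fzd3, chr14:65880741-65880773, minus strand: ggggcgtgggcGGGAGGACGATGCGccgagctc
At least 10 bases of this run were found in 0.681% of WT and 0.181% of Mbnl1 KO deep intronic tags and in 0.958% and 0.262% of all tags, a ratio of 0.287 in deep introns and 0.274 overall. The whole run was in 34 WT and 29 Mbnl1 KO deep intronic tags (0.410) and in 45 and 44 of all tags (0.470). HITS-CLIP libraries are made with RNA linkers ligated to the tags; the part of linker sequence in these clusters was not tested. The tetramers GACG and CGAT, high in WT, are both within the run.

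Clusters in sequence found once in the genome were fewer. In 59 of the 209, at least 90% of the tags had 1 genomic copy, and their median ratio was 0.721. Of these 18 held at least 8 bases of the shared run, with a median ratio of 0.361 and 0 above 1, though the run was found in the lowest ratios and its own ratio is no evidence. Without the demand for 1 genomic copy, 21 clusters held 8 bases of it, with a median of 0.378, a pooled ratio of 0.663 and 1 interval above 1. The other 41 of the 59 had a median ratio of 1.12, higher than 0.721 because clusters were left out on a run found in low ratios. Of the 41, 17 in 10 genes had YGCY, a median ratio of 1.55 and a pooled ratio of 1.59. Several of the 17 lay in Ttn or in 1810013L24Rik, and those of Ttn and Trdn held many of the Mbnl1 KO tags. The 24 with none had a median of 1.12 and a pooled ratio of 0.850, on the other side of 1. This contrast describes clusters of few genes, and the part of the motif in it was not tested. The 17 included the Ttn clusters shown first. The cluster with 9 WT and 29 Mbnl1 KO tags had a ratio of 1.55 (0.714 to 3.72) and the cluster beside it, with 1 and 14 tags, of 6.73 (1.02 to 285). The Ampd1 cluster had 2 and 9 tags at 2.16 (0.448 to 20.6). These tags were thus few, and of the 3 intervals only that of 6.73 lay above 1.

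By gene, 11887 genes had a deep intronic tag, 7393 of them in both tables, and 1621 had at least 20. The KO/WT interval lay above 1 at 182 of the 1621, which is 11.2%, and below 1 at 74, which is 4.57%, with a median ratio of 1.11. The 182 became 15 scaled to exonic tags, 36 with tags of at least 2 reads and 36 with tags of at least 24 nt. Of 1119 genes with at least 20 exonic tags, 49.1% had an interval above 1, with a median of 2.16. Genes with at least 20 deep intronic tags had a median of 33 tags, 0.199 tags per kb and YGCY at 50% of their tags.

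Mbnl1, the targeted gene, had 33 WT and 147 Mbnl1 KO tags in its deep introns, a ratio of 2.14 (1.46 to 3.23), and YGCY at 58.3% of them. These bases lie outside exons, so they do not check the deletion of exon 3. The 12 genes with the most tags differed in where their tags lay. Arid1b had 86 and 388 tags (2.17, 1.71 to 2.77), Unc45b 102 and 364 (1.72, 1.37 to 2.16) and Ccdc93, a subunit of an endosomal recycling complex, 70 and 190 (1.30, 0.987 to 1.74). YGCY was at 94.1%, 98.5% and 96.5% of their tags, and tandem repeats held 35.7%, 81.1% and 91.2%. Unc45b had 23.9 tags per kb, against the median of 0.199. Where bases with a gene on the opposite strand were left out, very few of its tags remained. The ratio of these, 0.120 (0.00244 to 1.21), had an interval that included 1, so it is no measure of a reversal. Orc5 had 5 and 334 tags (32.1, 13.6 to 99.5), of which 47.8% in tandem repeats by the measure used and YGCY at 4.13%.

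Dmd, Ttn and Trdn were of another kind, with at most 0.769% of their tags in tandem repeats. Dmd encodes dystrophin, which links the fibre's cytoskeleton to its membrane, and had 109 WT and 333 Mbnl1 KO tags over 2190 kb of deep intron (1.47, 1.18 to 1.84). Its largest cluster had 6 tags, and among tags of at least 24 nt its ratio was 0.993. Ttn had 44 and 214 (2.34, 1.68 to 3.31) over 73.4 kb, or 3.51 tags per kb, with YGCY at 61.2%, and its largest cluster held 38 of them. Trdn had 43 and 217 (2.43, 1.74 to 3.45) over 370 kb, with 26 in its largest cluster. The tags of Dmd were thus spread out, while part of those of Ttn and Trdn lay together. Rora, a nuclear receptor, had 62 and 230 (1.78, 1.34 to 2.40). The interval included 1 for Zbtb20, a zinc finger repressor, with 71 and 181 tags (1.23, 0.926 to 1.64), Pde4d with 79 and 171 and Gm20388 with 115 and 226. Gphn, with 52 and 205 (1.90, 1.39 to 2.62), rested on the cluster given above.

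Lists of genes were then read. The lists of the sarcomere, calcium handling, membrane and adhesion, RNA binding, and metabolism and signalling all had more deep intronic tags per Mb than the 45.5 in WT and 102 in Mbnl1 KO over all genes, while long neuronal genes had fewer. The opposite strand of their introns was alike, at 27.3 to 34.9 tags per Mb in WT and 37.2 to 54.6 in Mbnl1 KO.

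Sarcomere genes held 304 tags in WT and 1019 in Mbnl1 KO, or 111 and 373 per Mb, a ratio of 1.61 (1.42 to 1.84). Of the 19 with at least 20 tags, 7 had an interval above 1 and 0 below, against 11.2% and 4.57% over all genes. The median ratio of the 19 was 1.83 against 1.11. Among the 7 were Ttn, Neb, Myom1, Mybpc1 and Tpm1. Whether an interval excludes 1 depends on the number of tags. By that number the middle gene of the 19, Pdlim5, had 50 tags, against a median of 33 over all genes with at least 20. The shares set against 11.2% and 4.57%, here and in the lists below, were not matched for tag number. The part of tag number in them was not tested. Neb, the giant protein along the thin filament, had 18 and 83 tags (2.22, 1.32 to 3.92). Tpm1, a tropomyosin, had 3 and 28 (4.49, 1.39 to 23.1). Ank3 with 31 and 59 tags had a ratio of 0.915 (0.583 to 1.46).

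Calcium handling genes had 236 and 763 tags, or 74.1 and 240 per Mb, at a ratio of 1.55 (1.34 to 1.81). Of 16 with at least 20 tags, 4 had an interval above 1 and 1 below, against 11.2% and 4.57% over all genes. Trdn led the list, and Ryr1, the calcium release channel of the sarcoplasmic reticulum, had 18 and 64 tags (1.71, 1.00 to 3.06). Jph1, which ties that membrane to the transverse tubule, had 7 and 41 (2.82, 1.25 to 7.44), and Itpr1 6 and 32 (2.56, 1.06 to 7.501). Cacna2d1, a calcium channel subunit, had 26 and 63 (1.16, 0.727 to 1.92). Itpr2, an inositol trisphosphate receptor, was the 1 below, with 34 and 42 (0.594, 0.369 to 0.962), and 12 and 5 of these tags were in 1 cluster that holds at least 8 bases of the shared run.

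RNA binding genes had 268 and 825 tags, or 85.8 and 264 per Mb, at 1.48 (1.29 to 1.70), and 4 of 11 had an interval above 1, against 11.2% over all genes. They were Mbnl1, Rbfox1 with 45 and 136 tags (1.45, 1.03 to 2.08), Celf2 with 29 and 96 (1.59, 1.04 to 2.50) and Rbfox2 with 21 and 74 (1.69, 1.03 to 2.90), all regulators of splicing. Msi2 had 36 and 92 (1.23, 0.827 to 1.86), and Mbnl2 itself 15 and 40 (1.28, 0.693 to 2.50). Membrane and adhesion genes stood at 1.40 (1.24 to 1.59), with 3 of 15 intervals above 1, nearer to that 11.2%. Sgcd, a sarcoglycan, had 40 and 87 tags (1.05, 0.711 to 1.56) and Utrn, the homologue of dystrophin, 31 and 87 (1.35, 0.886 to 2.10). Metabolism and signalling genes stood at 1.31 (1.16 to 1.48), with 4 of 17 against the same 11.2%. Pde4dip, an anchor of phosphodiesterase, was one of the 4 with 16 and 85 tags, while Pde4d had 79 and 171 (1.04, 0.792 to 1.38) and the transcription factors Nfia 40 and 97 (1.17, 0.799 to 1.73) and Nfib 31 and 79 (1.23, 0.799 to 1.92).

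Long neuronal genes are a list of genes with very long introns, many of them for adhesion proteins of the synapse, though Sgcz is a sarcoglycan. They had 1023 WT and 1603 Mbnl1 KO tags over 34.3 Mb. That is 29.9 and 46.8 per Mb, against 27.3 and 37.2 on their opposite strand, and a ratio of 0.753 (0.696 to 0.816). Of 30 genes 0 had an interval above 1 and 5 below, against 11.2% and 4.57% over all genes, among them Cntnap2, Nrxn3, Csmd1 and Galntl6. Cntnap2, a neurexin-like protein of the axon, had 60 and 73 tags (0.585, 0.410 to 0.837). Ptprd, a receptor phosphatase, had 68 and 140 (0.990, 0.736 to 1.34), and Sox5, a transcription factor, 60 and 121 (0.969, 0.706 to 1.34). YGCY was at 34.1% of the WT and 42.9% of the Mbnl1 KO tags of this list, against 51.3% and 53.5% for the sarcomere. The ratios of the sarcomere and the neuronal list stood on the same sides of 1 with tags of at least 2 reads (1.27 and 0.659) and with tags of 1 genomic copy (1.66 and 0.648). With tags of at least 2 reads the intervals of RNA binding (1.21, 0.997 to 1.49) and of metabolism and signalling (1.16, 0.972 to 1.40) included 1. Among tags of at least 24 nt, the sarcomere list was at 1.07 (0.880 to 1.30) and the neuronal list at 0.893 (0.716 to 1.12), and both intervals include 1. The same held there for membrane and adhesion (1.19, 0.956 to 1.501), RNA binding (1.22, 0.971 to 1.55) and metabolism and signalling (1.17, 0.947 to 1.45), while calcium handling was at 1.60 (1.22 to 2.13). Scaled to exonic tags in place of all kept tags, the lists above 1 were below it, with the sarcomere at 0.837 (0.736 to 0.955), calcium handling at 0.808, RNA binding at 0.769, membrane and adhesion at 0.729 and metabolism and signalling at 0.678. On that scale the neuronal list was at 0.391, still the lowest of these.

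**Figure D5:**
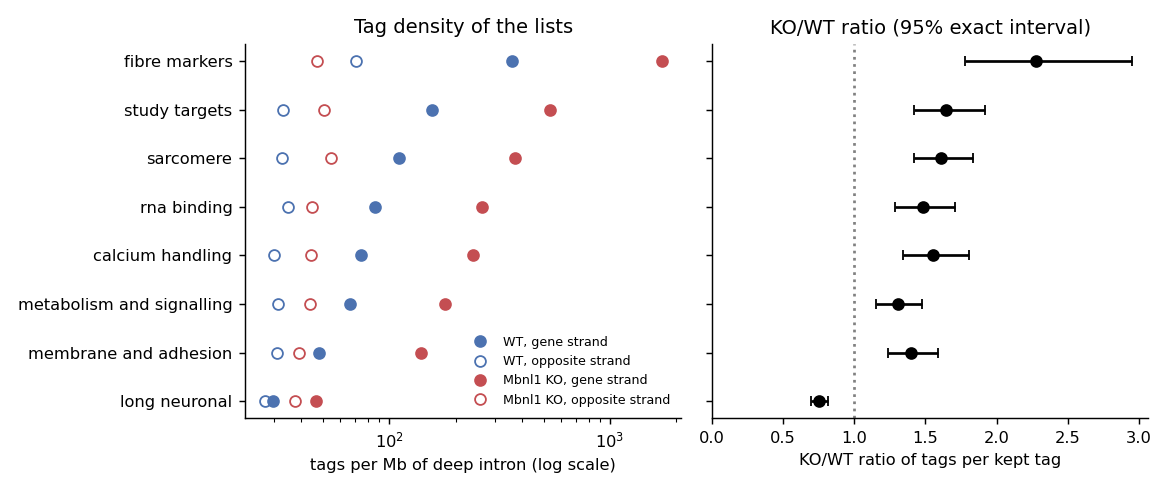
Left, deep intronic tags per Mb of 8 gene lists on the gene's strand (filled) and on the opposite strand (open), in WT (blue) and Mbnl1 KO (red), on a log scale. Right, the KO/WT ratio of each list with its 95% exact interval, from 0.753 for long neuronal genes to 2.28 for fibre markers.

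The muscle splicing targets examined by the study had 224 and 767 tags in deep introns, at 1.65 (1.42 to 1.92), with 3 of 12 intervals above 1, against 11.2% over all genes. The ratio was 0.855 (0.736 to 0.997) scaled to exonic tags and 1.14 (0.909 to 1.44) among tags of at least 24 nt. These genes were picked in part on muscle of the same genotypes and are no independent evidence. The 3 were Ttn, Mbnl1 and Ryr1. Adk had 27 and 63 tags (1.12, 0.704 to 1.83), Ldb3 22 and 58 (1.27, 0.764 to 2.17), Tnnt3 8 and 34 (2.04, 0.928 to 5.11), Bin1 11 and 23 (1.01, 0.471 to 2.28), Tlk2 11 and 18 (0.787, 0.352 to 1.84) and Atp2a1, the calcium pump, 4 and 24 (2.88, 0.991 to 11.4). Mbnl2 is given above, and the other 7 with at least 5 tags had at most 28 tags each and intervals that included 1, among them Nfix with 13 and 15, Ank1 with 3 and 17, Clcn1, the muscle chloride channel, with 1 and 12, Abi2 with 5 and 9, Csda with 4 and 9, Lnp with 3 and 10 and Cacna1s with 2 and 10. Pdp1 had 0 in either table. Exonic tags were more numerous in some of these genes, with 65 WT and 310 Mbnl1 KO tags in Ldb3 and 99 and 330 in Atp2a1.

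Fibre markers, 8 genes of which Ttn and Neb carried most tags, had 77 and 365 tags at 2.28 (1.78 to 2.95), or 1.18 (0.924 to 1.53) scaled to exonic tags and 1.23 (0.893 to 1.74) among tags of at least 24 nt, and those of other cells were few. Endothelial markers had 27 and 71, at 1.26 (0.801 to 2.05), of which Tek, a receptor of angiopoietins, had 0 and 21, which is 3.36-fold the floor of 3 WT tags with an exact interval from 2.50, while Pecam1, an adhesion protein of the same list, had 9 and 5 at 0.267 (0.0703 to 0.887). Fibroblast markers had 8 and 15, satellite cell markers 10 and 27, leukocyte markers 17 and 16, at 0.452 (0.214 to 0.952), smooth muscle markers 16 and 13, at 0.391 (0.173 to 0.866), adipocyte markers 1 and 4 and Schwann cell markers 3 and 7. With tags of 1 genomic copy the leukocyte list was at 0.577 (0.228 to 1.49) and the smooth muscle list at 0.401 (0.0967 to 1.58), so that both intervals included 1. With so few tags, and with binding and RNA level not told apart, their part in the ratios was not tested. Fewer nuclei of a type and less pre-mRNA per nucleus cannot be told apart in these tissue samples.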

How the data were processed

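Mbnl2 HITS-CLIP tags of quadriceps were analysed as 1 merged table of 3 mice per genotype. The authors kept reads of good quality, mapped them with BWA (version not given in the sources used here) against mm9, dropped the shortest, took out likely PCR duplicates and deposited each unique tag with a count of the reads collapsed into it, without normalization. Such merging hides the spread between mice, and high and low RNase tags cannot be told apart. The tables held 343554 WT and 476543 Mbnl1 KO tags from 5176203 and 50329234 reads.

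Tags on assembled chromosomes with a reference sequence under 70% one base were kept, 188766 in WT and 392681 in Mbnl1 KO (1 tag is thus 5.30 and 2.55 per 1000000), and placed by midpoint with Python 3.11.15, numpy 2.4.6, pandas 2.3.3, scipy 1.17.1 and samtools 1.23.1. KO/WT ratios are per kept tag, with exact intervals. A tag counted as tandem where its 101 nt window matched itself at 80% or more after a shift, and a cluster where 70% did. Genes named are the 12 with the most tags, those of the 12 largest clusters and of the 4 highest and 4 lowest ratios, the top 3 of each list and the study's targets with at least 5 tags. Other list members, such as those named for an interval above or below 1, and Ank3 and Pecam1, were named after their values were seen. Ptbp3 and Adgre1 were matched through older symbols in the RefSeq gene table. The members and lists were chosen with earlier results of these data known. Counting and intervals were tested on simulated data. Alternatives were other exon distances, tag filters, scalings, windows and minimum counts, and those on genomic copies, tandem repeats, the shared run and large clusters were chosen after seeing the data. A few genes that this rule names and 1 cluster sequence are not reported here. Mbnl2 knockout tissue was not analysed here.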

Additional observations from a re-analysis of the deposited data

How the results depend on the processing

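No paired analysis was possible because each genotype is 1 merged table, and for the same reason no replicate could be left out. The limits are counting error, the unknown spread between mice, and the scale: exonic tags are a larger share of the Mbnl1 KO table, so a ratio per kept tag and one per exonic tag differ. Depth limits clusters and genes with few WT tags, whose intervals span more than 1 order of size. Where a filter leaves fewer tags, fewer genes and clusters reach the minimum. The cause of the other changes was not tested. Values in 50 of the 113 comparisons of the 7 main results with an alternative stayed within the interval, or within 1.5 times a count.

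The deep intronic KO/WT ratio of 1.08 was 1.20 with single-base tags kept, 1.06 with them left out at 60%, 1.01 with tags of at least 2 reads, 1.02 with tags of at least 24 nt, 2.25 as raw tags, 1.00 with 1 genomic copy and 1.05 without tandem repeats. It was 0.561 scaled to exonic tags, on the other side of 1, as were Unc45b at 0.892, Dmd at 0.763, Rora at 0.927, Gphn at 0.985 and Ryr1 at 0.888. Unc45b was 0.120 without bases that have a gene on the opposite strand, but on very few tags and with an interval that included 1. Dmd was 0.993 and Gphn 0.966 with tags of at least 24 nt. Other ratios at single genes moved beyond their interval in 41 cases and stayed within it in 364.

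The sense/antisense ratio in WT, 1.40, was 1.37 at over 1000 nt from exons, 1.01 with single-base tags kept, 1.47 with them left out at 60%, 2.12 with at least 2 reads, 1.96 with at least 24 nt, 1.47 without dinucleotide repeats, 1.48 without opposite-strand genes, 1.51 with 1 genomic copy and 1.46 without clusters of at least 10 tags. In Mbnl1 KO, 1.85, it was 1.82 at over 500 nt, 1.77 at over 1000 nt, 1.61 with single-base tags kept, 1.89 with them left out at 60%, 2.57 with at least 2 reads, 1.78 with 1 tag kept per 5′ end, 2.49 with at least 24 nt, 1.93 without dinucleotide repeats, 2.195 without opposite-strand genes, 2.27 with 1 genomic copy, 1.81 without tandem repeats and 2.06 without clusters. The values were above 1 in each, though the WT interval with single-base tags kept, 0.995 to 1.02, included 1.

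The YGCY share over flanks in WT, 1.61, was 1.14 with single-base tags kept, 1.67 with them left out at 60%, 1.83 with at least 2 reads, 1.69 with at least 24 nt, 1.66 without dinucleotide repeats, 1.32 in windows of 51 nt, 1.95 in windows of 21 nt, 1.56 with flanks at 100 nt and 1.65 with 1 genomic copy. In Mbnl1 KO, 1.78, it was 1.61 with single-base tags kept, 1.84 with at least 2 reads, 1.80 with at least 24 nt, 1.82 without dinucleotide repeats, 1.43 and 2.15 in windows of 51 and 21 nt, 1.69 with flanks at 100 nt, 1.82 with 1 genomic copy and 1.83 without tandem repeats.

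The 209 clusters became 690 with single-base tags kept, 52 with at least 2 reads, 106 with 1 tag per 5′ end, 61 with at least 24 nt, 67 with 1 genomic copy and 136 without tandem repeats, and were 1234 at a minimum of 5 tags and 59 at 20. The 182 genes with an interval above 1 became 409, 36, 95, 36 and 71 under the first 5 of these filters, 908 as raw tags, 15 scaled to exonic tags and 112 at a minimum of 40 tags.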
